A study of Mus musculus with 8 samples.

Results

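The NMDA receptor subunit genes described here are Grin1, Grin2a, Grin2b, Grin2c, Grin2d and Grin3a, 6 of the 18939 genes in the deposited read counts. Their entries were found by gene symbol, with no threshold on values. RNA came from neurons of the mouse paraventricular nucleus of the thalamus (PVT) that express the mu opioid receptor (MOR). It was collected by translating ribosome affinity purification (TRAP), in which a GFP-tagged ribosomal protein, EGFP-L10a, is made only in cells with Cre, and ribosomes with their RNA are pulled down through the tag. All 8 libraries were from adult mice of the genotype OPRM1cre X EGFP-L10a on a C57Bl/6J background, controls included, with Cre placed behind the Oprm1 coding sequence.

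The 4 morphine libraries (replicates 3, 4, 7 and 8) came from mice that drank morphine in 0.2% saccharin for 11 days, up to 0.5 mg/ml. The 4 control libraries (replicates 1, 2, 5 and 6) are labelled as control drinking water, which by the methods held saccharin alone. Replicates 1 to 4 are male and 5 to 8 female by the labels, and by the methods each library pooled tissue of 2 mice of the same sex, which is uncertain for control replicate 5 (its sex-linked counts are given with the sexes). Tissue was taken by a gross dissection aimed at the PVT, so the pull-down could include Cre-positive cells of neighbouring structures. Total counts were 37081346 to 43311792 in the control libraries and 31151106 to 47582947 in the morphine libraries.

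NMDA receptors are glutamate-gated cation channels of 4 subunits. Each holds the obligatory GluN1 subunit, encoded by Grin1, which binds glycine or D-serine, together with GluN2 subunits (Grin2a to Grin2d) that bind glutamate or GluN3 subunits (Grin3a, Grin3b) that bind glycine. The GluN2 subunit sets how fast the channel closes, how strongly magnesium blocks it and which scaffold and kinase it binds, and in cortex a rise of GluN2A relative to GluN2B accompanies maturation of the synapse. NMDA receptors are long known for a part in opioid tolerance and dependence, since blocking them slows the loss of morphine's effect in rodents.

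The subunits differ widely in sequence but share a short stretch of the membrane segment that forms the gate of the channel. The 27 bases that encode it are shown for 4 of the genes, because likeness between subunits bears on whether reads of 1 could be counted for another. Capitals mark the 15 bases that are the same in all 6 genes. Sequences are from GRCm38, read 5′ to 3′ on the minus strand, which is the coding strand of each gene.
Grin1 (chr2:25297199-25297225, exon 15 of 20): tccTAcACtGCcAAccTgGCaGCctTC
Grin2a (chr16:9653447-9653473, exon 8 of 12): agtTAcACaGCcAAccTgGCtGCctTC
Grin2c (chr11:115253749-115253775, exon 11 of 15): agcTAcACgGCcAAtcTgGCaGCctTC
Grin3a (chr4:49770470-49770496, exon 3 of 9): acaTAcACaGCgAActTgGCtGCtgTC

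Over this stretch Grin2a differed from Grin1 at 5 bases, Grin2c at 4 and Grin3a at 8. Over the whole coding sequence the pairs with the highest identity were Grin2c with Grin2d, at 63.9%, and Grin2a with Grin2b, at 63.7%. The reads were 50 bases long, and 0 of the 15 subunit pairs shared any run of 50 bases in their transcripts. At 25 bases, 3 pairs shared at least 1 run. Genes on the other strand are another possible source of reads: Grin1 overlaps the antisense gene Grin1os, and Grin2b and Grin2d also overlap antisense genes, and the use of strand in counting is not stated. Grin2a has no overlapping gene in the annotation. The protein-coding neighbours that overlap Grin1 and Grin3a, Lrrc26 and Ppp3r2, had at most 4 and 8 counts per library.

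All 6 subunit genes were detected in every library, with 328 to 13284 counts, and all 6 passed both filters on low counts. Values are given as CPM, counts scaled to a common library size after normalisation. By edgeR, 0 of 6 subunit genes were called (adjusted p under 0.05), where 0.195% of all genes were called. At an unadjusted p under 0.05 there were 3 of 6, Grin1, Grin2a and Grin2b, each with the higher mean in morphine, where 12.1% of all genes lay under that value. DESeq2, the tool of the study's own test, called 1 of 6, Grin2a, where it called 2.63% of all genes. The median log2 fold change over all genes was 0.0088.

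**Figure D1:**
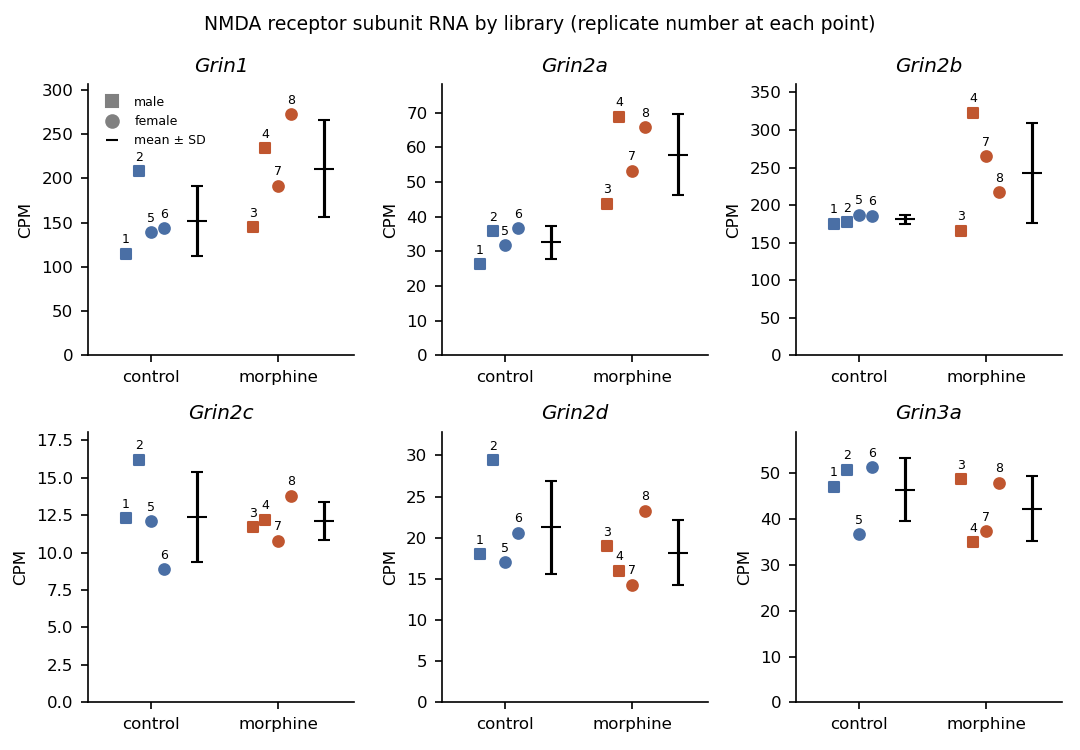
RNA of each subunit gene in CPM (vertical axis) in the control and morphine libraries, with the replicate number at each point, squares for male and circles for female libraries, and the mean ± SD of 4 libraries in black. Grin2a is the gene whose groups do not overlap (26.2 to 36.6 CPM in control, 43.7 to 68.8 CPM in morphine), and the 4 control libraries of Grin2b lie close together at 175 to 187 CPM.

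Grin1, the obligatory subunit, had 115, 208, 139 and 144 CPM in control replicates 1, 2, 5 and 6, and 145, 234, 192 and 273 CPM in morphine replicates 3, 4, 7 and 8. Control replicate 2 lay above morphine replicates 3 and 7, so the groups overlapped. The means were 151 ± 40.1 and 211 ± 54.9 CPM (SD, n = 4 each). The log2 fold change was 0.48 with an SE of 0.21 and a 95% interval of 0.022 to 0.94, and it did not pass the test (edgeR, adjusted p = 0.385, unadjusted p = 0.0414). DESeq2 gave the same log2 fold change, with an adjusted p of 0.267.

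Grin2a encodes GluN2A, the subunit of fast-closing receptors that becomes frequent at mature synapses. It had 26.2, 35.7, 31.7 and 36.6 CPM in control replicates 1, 2, 5 and 6. Morphine replicates 3, 4, 7 and 8 had 43.7, 68.8, 53.2 and 65.8 CPM. All 4 morphine libraries lay above all 4 controls, with the lowest morphine value 43.7 against the highest control value 36.6 CPM. Over all genes, 6.55% had groups that did not overlap, 3.34% with morphine higher and 3.21% with morphine lower.

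Mean Grin2a was 32.5 ± 4.75 CPM in control and 57.9 ± 11.6 CPM in morphine (SD, n = 4 each), a 1.78-fold difference. The log2 fold change was 0.83 with an SE of 0.16 and a 95% interval of 0.49 to 1.17. In the edgeR fit its unadjusted p was 0.000219 and its adjusted p was 0.0609, just short of the threshold. With DESeq2 the log2 fold change was again 0.83 and the adjusted p was 0.000327, so Grin2a passed there. The exact two-sided permutation test over libraries gave p = 0.0286, the smallest that 4 against 4 libraries allow. Any gene whose groups do not overlap reaches this value (6.55% of all genes), so it restates the lack of overlap and adds no further test. Adding sex to the edgeR model brought the adjusted p to 0.0392, and leaving out morphine replicate 3, the lowest of the morphine libraries, brought it to 0.0315 with a log2 fold change of 0.94. The call of Grin2a therefore turned on the tool and the model. With single libraries left out its log2 fold change was 0.73 to 0.94, and with a score of telencephalic or choroid plexus markers in the model it was 0.50 or 0.34.

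Grin2b encodes GluN2B, the subunit of slower-closing receptors that binds the kinase CaMKII. It had 175, 177, 187 and 186 CPM in control replicates 1, 2, 5 and 6, a spread of 3.36% (SD relative to the mean). In morphine replicates 3, 4, 7 and 8 it had 166, 323, 265 and 217 CPM, a spread of 27.7%. Morphine replicate 3 lay below every control and the other 3 above every control. The means were 181 ± 6.09 and 243 ± 67.2 CPM (SD, n = 4 each), and the log2 fold change of 0.42 (SE 0.17, 95% interval 0.054 to 0.79) did not pass the test (edgeR, adjusted p = 0.339; DESeq2, adjusted p = 0.230). With single libraries left out its log2 fold change was 0.25 to 0.57, the lowest without morphine replicate 4. The difference in spread between the groups was not tested.

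The ratio of Grin2a to Grin2b counts within a library does not depend on how libraries are scaled. It was 0.149, 0.202, 0.170 and 0.196 in control replicates 1, 2, 5 and 6, and 0.263, 0.213, 0.200 and 0.304 in morphine replicates 3, 4, 7 and 8. The groups overlapped by 1 pair, with morphine replicate 7 at 0.200 just under control replicate 2 at 0.202. The mean was 0.179 ± 0.0245 in control and 0.245 ± 0.0476 in morphine (SD, n = 4 each), a log2 difference of 0.44, and this did not pass the exact two-sided permutation test (p = 0.0571; 0.114 after Benjamini-Hochberg adjustment over the 6 ratios computed). These are ratios of counts and not of molecules, since the transcripts differ in length, but the length cancels in the comparison between groups.

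The other 5 ratios set each subunit against Grin1 in the same library. For Grin2a to Grin1 the ratio was 0.228, 0.172, 0.228 and 0.255 in the controls and 0.301, 0.294, 0.277 and 0.241 in morphine, a log2 difference of 0.34 (exact permutation p = 0.0571, adjusted 0.114). Morphine replicate 8, which had the most Grin1, was the library of its group that overlapped the controls. The Grin2b to Grin1 ratio was 1.25 ± 0.288 in control and 1.17 ± 0.278 in morphine (SD, n = 4 each), a log2 difference of -0.10 (exact permutation p = 0.629).

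For the remaining subunits the ratio to Grin1 had a lower mean in morphine. By edgeR the log2 fold change was 0.48 for Grin1 itself, -0.03 for Grin2c, -0.23 for Grin2d and -0.14 for Grin3a. A lower ratio therefore does not by itself mean a lower level of that subunit. Grin2d to Grin1 was 0.157, 0.141, 0.122 and 0.143 in the controls and 0.131, 0.0683, 0.0744 and 0.0853 in morphine, so that only morphine replicate 3 lay within the control range. The log2 difference was -0.69 (exact permutation p = 0.0571, adjusted 0.114). Grin3a to Grin1 was 0.318 ± 0.0787 in control and 0.213 ± 0.0828 in morphine (SD, n = 4 each), a log2 difference of -0.62 (exact permutation p = 0.114, adjusted 0.137). Grin2c to Grin1 was 0.0835 ± 0.0190 in control and 0.0599 ± 0.0141 in morphine, a log2 difference of -0.48 (exact permutation p = 0.0857, adjusted 0.129; n = 4 each). None of the 6 ratios passed the test after adjustment. The smallest exact p that 4 against 4 libraries allow, 0.0286, would not pass for a single ratio after adjustment over 6, so the adjusted test had little room, and since 5 of them share Grin1 they are not independent of each other.

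**Figure D2:**
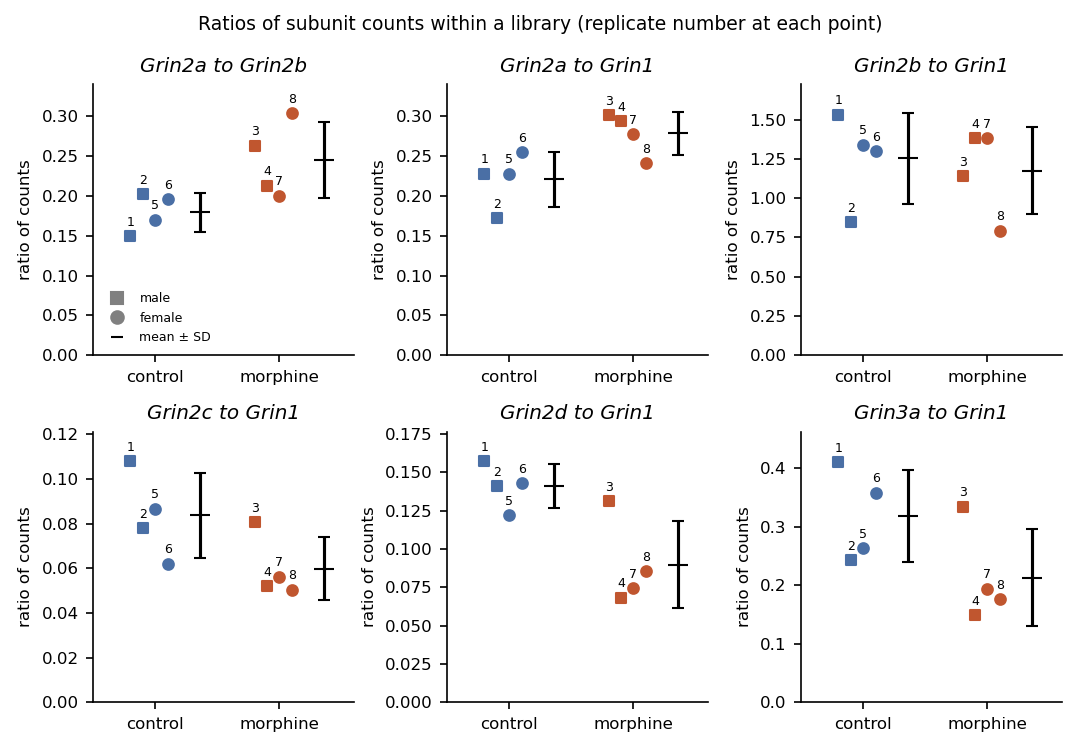
Ratio of the counts of 2 subunit genes within a library (vertical axis) in the control and morphine libraries, with the replicate number at each point, squares for male and circles for female libraries, and the mean ± SD of 4 libraries in black. The Grin2a to Grin2b ratio spans 0.149 to 0.202 in control and 0.200 to 0.304 in morphine, and Grin2d to Grin1 spans 0.122 to 0.157 and 0.0683 to 0.131.

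Grin2c encodes GluN2C, a subunit with weak magnesium block best known from cerebellar granule cells. It had 12.3, 16.2, 12.1 and 8.90 CPM in control replicates 1, 2, 5 and 6 and 11.7, 12.2, 10.8 and 13.8 CPM in morphine replicates 3, 4, 7 and 8, with every morphine library inside the control range. The log2 fold change was -0.03 (SE 0.17), with a 95% interval of -0.41 to 0.34 (edgeR, adjusted p = 0.966).

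Grin2d encodes GluN2D, the subunit of the slowest-closing receptors, found early in development and in the adult mainly in diencephalon, brainstem and interneurons. Its control values were 18.0, 29.4, 17.0 and 20.6 CPM in replicates 1, 2, 5 and 6, with replicate 2 above the others, and its morphine values were 19.0, 16.0, 14.3 and 23.3 CPM in replicates 3, 4, 7 and 8. Morphine replicate 8 was the highest of its group and lay above 3 controls. The log2 fold change was -0.23 (SE 0.20, 95% interval -0.66 to 0.20) and did not pass the test (edgeR, adjusted p = 0.677). It was -0.029 without control replicate 2 and -0.37 without morphine replicate 8.

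Grin3a encodes GluN3A, which lowers the calcium flow and the magnesium block of the receptors that hold it. It had 47.0, 50.7, 36.6 and 51.3 CPM in control replicates 1, 2, 5 and 6 and 48.6, 34.9, 37.3 and 47.9 CPM in morphine replicates 3, 4, 7 and 8. Control replicate 5 and morphine replicates 4 and 7 were the low libraries, so values overlapped between groups. The log2 fold change was -0.14 (SE 0.14, 95% interval -0.45 to 0.18) and did not pass the test (edgeR, adjusted p = 0.712). It was -0.25 without control replicate 5 and -0.056 without morphine replicate 4. The other GluN3 gene, Grin3b, had 3 to 20 counts per library, or 0.0769 to 0.411 CPM.

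Levels of different subunits were compared as CPM per kb of transcript, because a longer transcript yields more reads. With the length of the transcript paired with the counted entry, Grin1 was highest in control at 39.7 ± 10.5 CPM per kb, followed by Grin2b at 24.2 ± 0.814, Grin2a at 7.40 ± 1.08, Grin3a at 6.24 ± 0.916, Grin2d at 3.91 ± 1.04 and Grin2c at 2.53 ± 0.613 CPM per kb (SD, n = 4). The order of the means was the same in morphine, with Grin1 at 55.4 ± 14.4, Grin2b at 32.4 ± 8.98, Grin2a at 13.2 ± 2.65, Grin3a at 5.68 ± 0.956, Grin2d at 3.34 ± 0.727 and Grin2c at 2.48 ± 0.251 CPM per kb. Grin1 was above Grin2b in 8 of 8 libraries, although their ranges overlapped in morphine, and Grin2b was above Grin2a in 8 of 8 with no overlap. Grin2a and Grin3a were neighbours whose control ranges overlapped, with Grin2a higher in 3 of 4 control libraries, while in morphine their ranges did not overlap. Grin3a and Grin2d overlapped in range in control but not in morphine. Grin2d and Grin2c overlapped in both groups, although Grin2d was higher in 8 of 8 libraries.

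The place of Grin2a in this order depends on the transcript length. Its counted entry is paired with a transcript of 4395 bases, nearly all of it coding, whereas the longest annotated coding transcript of the gene has 14634 bases. For Grin2b the lengths were 7484 and 24060 bases. Which length the counting used is not given in the sources used here. With the longest transcripts Grin2a was at 2.22 ± 0.325 CPM per kb in control, below Grin3a at 6.19 ± 0.908, Grin2d at 3.91 ± 1.04 and, within the spread, Grin2c at 2.53 ± 0.613, and Grin2b was at 7.53 ± 0.253, still second to Grin1 at 35.4 ± 9.37 CPM per kb (SD, n = 4). In morphine, by the same lengths, Grin2a was at 3.96 ± 0.795 CPM per kb, above Grin2d at 3.34 ± 0.727 and Grin2c at 2.48 ± 0.251. Grin2d was above Grin2a in 4 of 4 control libraries and 1 of 4 morphine libraries, so the order of these genes differed between the groups as a description.

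The share of Grin2a in the summed CPM per kb of the 6 subunits was 8.84% ± 0.892 in control and 11.7% ± 0.384 in morphine with the paired lengths (SD, n = 4 each), with 9.98% in the highest control library and 11.2% in the lowest morphine library. With the longest lengths it ran from 3.30% to 4.44% in control and from 4.95% to 5.67% in morphine. The groups did not overlap with either length, and no test was made of these shares. This share rests on the same Grin2a counts as its CPM, so it adds no separate result. The shares of the other subunits overlapped between the groups with either length. By the paired lengths that of Grin2d was 4.61% ± 0.553 in control and 3.06% ± 0.909 in morphine. For Grin3a it was 7.50% ± 1.25 and 5.29% ± 1.84. The 4 Grin2 genes together were 0.993 ± 0.181 of Grin1 in control and 0.948 ± 0.159 in morphine by the paired lengths (SD, n = 4 each), and 0.471 ± 0.0721 and 0.413 ± 0.0621 by the longest.

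**Figure D3:**
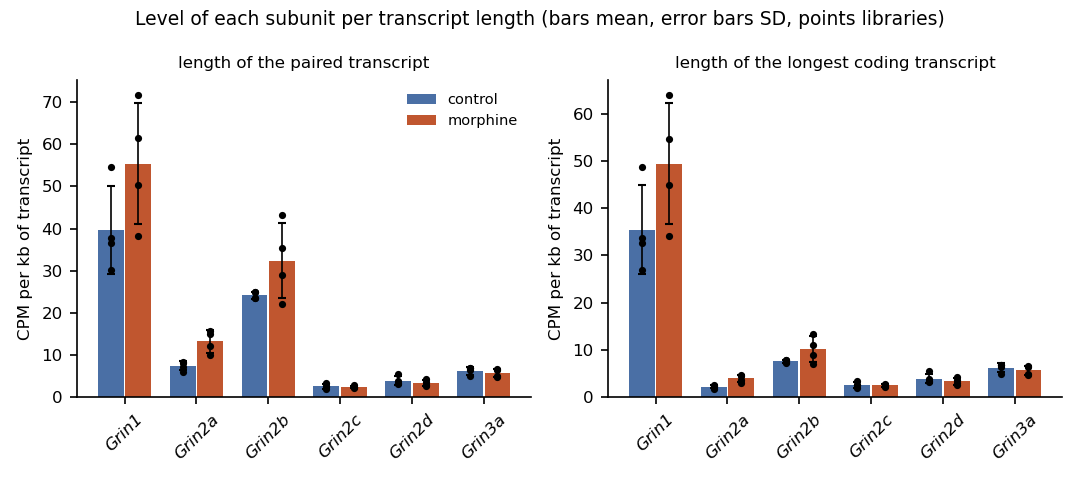
Level of each subunit gene in CPM per kb of transcript (vertical axis), with bars for the mean of 4 control or 4 morphine libraries, error bars for the SD and points for the libraries, by the length of the transcript paired with the counted entry (left) or of the longest coding transcript (right). Grin1 and Grin2b are the highest by either length, and Grin2a in control is at 7.40 CPM per kb by the first and 2.22 by the other.

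The labelled tissue was checked against marker genes. Of 9 markers of midline thalamus and MOR neurons all were detected, among them Tcf7l2, a transcription factor of thalamic neurons, at 1101 ± 202 CPM in control and 947 ± 291 CPM in morphine (SD, n = 4 each). Oprm1, which encodes the MOR, had 704 to 1307 counts per library in control and 463 to 896 in morphine. These counts are not scaled to library size, so they show that the gene was detected and do not compare the groups. Gad1 and Gad2, which make GABA, were also high, with Gad2 at 624 ± 103 CPM in control and 466 ± 120 CPM in morphine. The summed level of all 10 GABAergic markers was 1215 to 1620 CPM in control and 938 to 1449 CPM in morphine, with 4 of 10 above 0 in log2 fold change, a median of -0.16 and a range of -0.95 to 0.42. Pvalb, a marker of fast-spiking interneurons, had 102 ± 55.6 CPM in control and 136 ± 10.8 CPM in morphine. Markers of thalamic and of inhibitory neurons were thus both present. In such bulk RNA, fewer cells of a type and less RNA per cell cannot be told apart.

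Markers of other structures were compared between the groups. The summed level of 13 choroid plexus markers was 43.8 to 165 CPM in control and 219 to 681 CPM in morphine, with no overlap. Of these, 12 of 13 were above 0 in log2 fold change (median 1.97), 0 were called by edgeR and 8 by DESeq2, and none was at 0 in every library. Ttr, the transthyretin made by this epithelium, had 0.949 to 44.5 CPM in control and 69.9 to 302 CPM in morphine. The summed level of 13 markers of telencephalic pyramidal neurons was 654 to 1053 CPM in control and 776 to 1550 CPM in morphine, an overlap, with 11 of 13 above 0, a median of 0.88, 0 called by edgeR, 5 by DESeq2 (4 higher and 1 lower, beside 1.70% and 0.929% of all genes) and none at 0 in every library. Mef2c, the highest of these markers, had 185 to 329 CPM in control and 191 to 390 CPM in morphine, a log2 fold change of 0.16. Slc17a7, the vesicular glutamate transporter of cortical neurons, had 78.1 to 193 CPM in control and 174 to 365 CPM in morphine, a log2 fold change of 1.15. The 9 markers of midline thalamus and MOR neurons had 0 of 9 above 0, with a median of -0.29 and a summed level of 2393 to 3152 CPM in control and 1797 to 3107 CPM in morphine. An unadjusted p under 0.05 in edgeR was found for 10 of 13 choroid plexus and 7 of 13 telencephalic markers, beside 12.1% of all genes. Groups did not overlap for 7 and 3 of them, beside 6.55% of all genes.

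Library by library, the mean log2 CPM of the telencephalic markers was 3.89, 3.98, 3.85 and 5.49 in control replicates 1, 2, 5 and 6 and 4.88, 6.04, 5.85 and 5.61 in morphine replicates 3, 4, 7 and 8. Morphine replicate 3, the lowest of its group on this score, was also the lowest of its group for Grin1, Grin2a and Grin2b. Other libraries did not follow the score in this way. Control replicate 6 scored above morphine replicate 3, but its Grin1 and Grin2b (144 and 186 CPM) lay among the other controls. Its Grin2a (36.6 CPM) was the highest of the controls. Morphine replicate 8 had the most Grin1 (273 CPM) with a lower score than replicates 4 and 7. The choroid plexus score was -0.12, 1.15, 0.79 and 2.19 in the controls and 2.27, 3.05, 2.25 and 3.52 in morphine, and control replicate 6, at 2.19, was close to morphine replicates 3 and 7.

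With the telencephalic score as a term in the edgeR model, the log2 fold change of Grin2a was 0.50 (SE 0.22, adjusted p = 0.602), that of Grin1 was 0.31 (SE 0.36, adjusted p = 0.842) and that of Grin2b was 0.063 (SE 0.25, adjusted p = 0.971). When the choroid plexus score was the term, the edgeR values were 0.34 for Grin2a (SE 0.19), -0.079 for Grin1 (SE 0.31) and 0.30 for Grin2b (SE 0.29), each with an adjusted p of 1.00. These fits called 1 and 0 of all 18939 genes, so that Grin2a was not called in them says nothing particular to it. Both scores had the higher mean in morphine, by 1.30 and 1.77 on the log2 scale, so that marker level and condition cannot be told apart in these libraries.

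**Figure D4:**
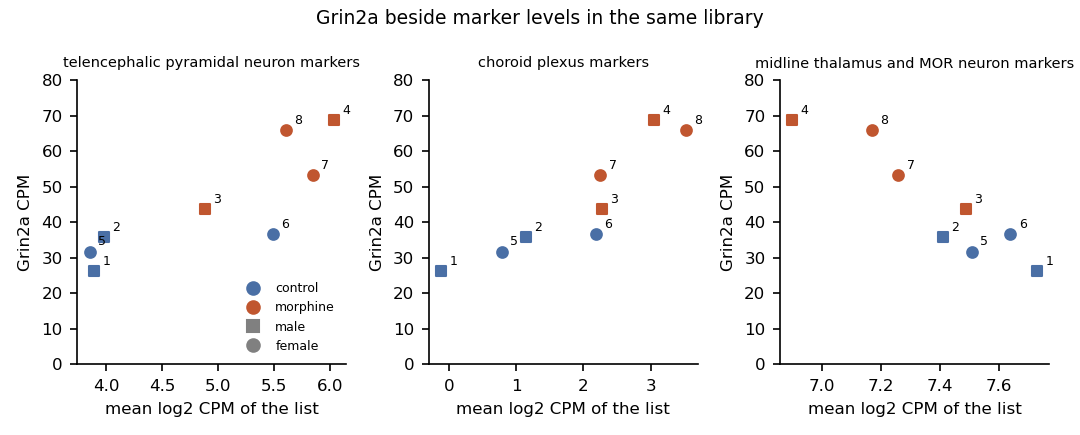
Grin2a in CPM (vertical axis) against the mean log2 CPM of 3 marker lists in the same library (horizontal axes), with the replicate number at each point, blue for control, orange for morphine, squares for male and circles for female libraries. Morphine replicates 4, 7 and 8 combine the highest Grin2a (53.2 to 68.8 CPM) with the highest telencephalic scores (5.61 to 6.04), and control replicate 6 has a telencephalic score of 5.49 with 36.6 CPM.

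**Figure D5:**
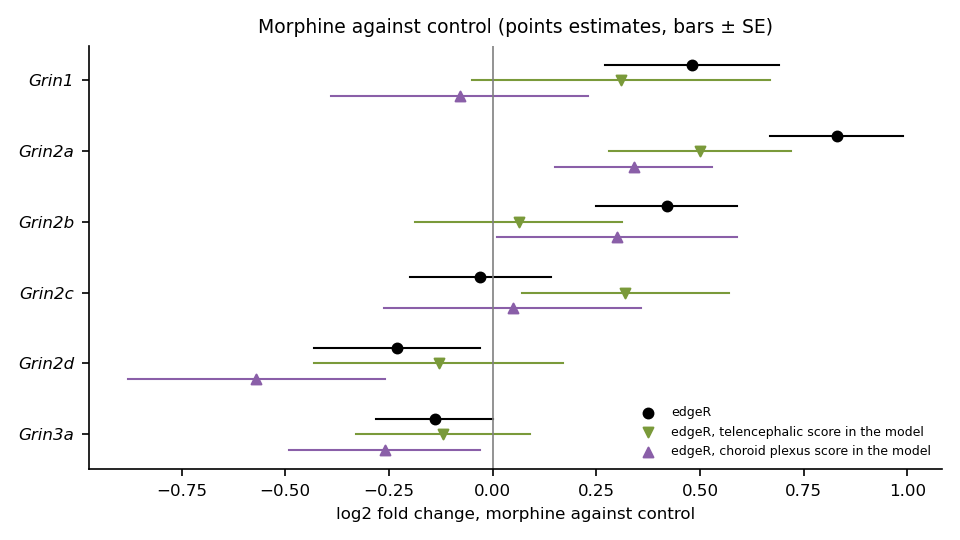
Log2 fold change of each subunit gene, morphine against control (horizontal axis), with bars of ± SE, from edgeR (black circles) and with a telencephalic (green) or choroid plexus (purple) marker score in the model. The estimate of Grin2a is 0.83, 0.50 and 0.34 in these fits, and those of Grin3a and Grin2d are below 0 in all 3.

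Other marker lists overlapped between the groups in summed level. It was 281 to 451 CPM in control and 334 to 425 CPM in morphine for 10 astrocyte markers, 126 to 1274 and 591 to 1564 CPM for 9 oligodendrocyte markers, 1.10 to 6.33 and 2.34 to 3.62 CPM for 8 microglia markers, and 308 to 405 and 257 to 402 CPM for 8 medial habenula markers. Of the astrocyte and oligodendrocyte markers 9 of 10 and 9 of 9 were above 0 in log2 fold change, with medians of 0.39 and 0.56. In these 4 lists and those of thalamic and GABAergic neurons 0 genes were called by edgeR or by DESeq2. An unadjusted p under 0.05 in edgeR, reached by 12.1% of all genes, was found for 3 of 9 thalamic, 2 of 10 GABAergic, 1 of 10 astrocyte, 1 of 8 habenula, 0 of 9 oligodendrocyte and 0 of 8 microglia markers. Their part in the subunit values was not tested.

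Both sexes had a higher mean of Grin2a in morphine. Male libraries went from 31.0 to 56.3 CPM and female libraries from 34.1 to 59.5 CPM, with 2 libraries in each mean, and the interaction term (female minus male) was -0.059 (SE 0.33; edgeR, adjusted p = 1.00). For Grin1 the log2 fold change was 0.22 (SE 0.27) in males and 0.72 (SE 0.18) in females, an interaction of 0.49 (SE 0.41; edgeR, unadjusted p = 0.257, adjusted p = 1.00). Grin2c had a log2 fold change of -0.27 in males and 0.23 in females, with an interaction of 0.49 (SE 0.32; edgeR, unadjusted p = 0.152, adjusted p = 1.00). By edgeR 0 of 6 subunits passed the test of the interaction, 0 of 6 had an unadjusted p under 0.05 and 0 of 6 passed with DESeq2. Of all 18939 genes, edgeR called 0.00%, DESeq2 called 4 genes, and 1.72% had an unadjusted p under 0.05 in edgeR. With 2 libraries of each sex in a group, the SE of 0.30 to 0.41 leaves room for sizeable differences between the sexes.

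Female and male libraries did not differ past the test in any of the 6 subunits. The log2 differences, female minus male with condition in the model, lay between -0.20 (Grin2c) and 0.11 (Grin2a), and 0 of 6 were called by edgeR, which called 0.00528% of all genes. Neither an unadjusted p under 0.05 in edgeR, reached by 3.10% of all genes, nor an adjusted one in DESeq2, reached by 26 of the 18939 genes, was reached by any subunit. Control replicate 5, labelled female, held RNA of 4 Y-linked genes at 28.7% to 35.8% of the mean CPM of the male libraries, whereas 2 counts was the most in any other female library, and Xist, the RNA of the inactive X chromosome, had 66 counts in it, 45 to 170 in the other female libraries and 0 in each male library, so it held signs of both sexes. Without this library the 6 interactions lay between -0.16 and 0.72 and 0 of 6 were called, and the females-minus-males difference of Grin2a was 0.13.

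Proteins that hold, modify or serve the receptor were described by lists of partner genes. For scaffolds of the postsynaptic density, 14 genes were analysed. By edgeR 1 of 14 was called, higher in morphine, and 0 were lower, beside 0.164% and 0.0317% of all genes. This was Homer3, which links metabotropic receptors to the Shank scaffold, with 5.64 ± 0.975 CPM in control and 14.1 ± 4.08 CPM in morphine (SD, n = 4 each), a log2 fold change of 1.32 (SE 0.22; edgeR, adjusted p = 0.0474). This call held in 7 of 21 alternatives, DESeq2 among them, and was lost in the other 14, with a log2 fold change of at least 1.01 in all of them. With single libraries left out it held in 1 of 8 edgeR fits, that without morphine replicate 3 (adjusted p 0.0140 to 0.157 over the 8). Dlgap1, the scaffold that joins PSD-95 to Shank, had 411 ± 70.4 and 485 ± 51.2 CPM and did not pass (log2 fold change 0.24; edgeR, adjusted p = 0.509). Of the scaffold genes 13 of 14 were above 0, and their log2 fold changes ran from -0.041 to 1.32 around a median of 0.10.

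Kinases and phosphatases of the receptor had 0 of 15 genes called by edgeR, 5 of 15 at an unadjusted p under 0.05 (12.1% of all genes), and 3 of 15 called by DESeq2, all higher, beside 1.70% of all genes. Ppp3ca, the catalytic subunit of the calcium-dependent phosphatase calcineurin, had 614 ± 63.2 CPM in control and 1024 ± 244 CPM in morphine (log2 fold change 0.74, SE 0.16; edgeR, adjusted p = 0.0962; DESeq2, adjusted p = 0.00268). Ptk2b, a tyrosine kinase that acts upstream of Src, had 320 ± 15.6 and 560 ± 162 CPM (log2 fold change 0.81, SE 0.18; edgeR, adjusted p = 0.0995; DESeq2, adjusted p = 0.00300). Ppp3r1, the regulatory subunit of calcineurin, was named after its values were seen and had a log2 fold change of 0.32 (SE 0.10; edgeR, adjusted p = 0.244; DESeq2, adjusted p = 0.0390). These 3 of 15 genes had groups that did not overlap, with morphine higher, beside 3.34% of all genes. The median log2 fold change of the list was 0.058.

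In the other 3 lists no gene was called by edgeR or by DESeq2. Calcium signalling downstream of the receptor had 4 of 10 genes at an unadjusted p under 0.05 by edgeR, beside 12.1% of all genes, and a median log2 fold change of 0.017, with 5 of 10 above 0. In it, Kalrn, an exchange factor that shapes dendritic spines, had 301 ± 53.0 CPM in control and 451 ± 107 CPM in morphine (SD, n = 4 each; log2 fold change 0.58, edgeR adjusted p = 0.221). Rasgrf2, a calcium-activated Ras exchange factor, had 190 ± 29.3 and 147 ± 9.79 CPM (log2 fold change -0.37, edgeR adjusted p = 0.232).

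Genes for the supply of the co-agonists glycine and D-serine had 0 of 8 at an unadjusted p under 0.05 by edgeR, 7 of 8 above 0 and a median of 0.19. Srr, the enzyme that makes D-serine, had 108 ± 4.48 and 122 ± 17.4 CPM (edgeR, adjusted p = 0.559), and Slc1a4, a neutral amino acid transporter, had 15.3 ± 4.54 and 18.9 ± 4.70 CPM (edgeR, adjusted p = 0.611). Trafficking and auxiliary partners had 2 of 13 at an unadjusted p under 0.05 by edgeR, beside the same 12.1%, 6 of 13 above 0 and a median of -0.06. Those 2 were Dpysl2, a microtubule-binding protein, at 1759 ± 263 CPM in control and 1387 ± 119 CPM in morphine (log2 fold change -0.34; edgeR, adjusted p = 0.319), and Neto1, an auxiliary subunit of glutamate receptors, at 65.9 ± 10.8 and 99.5 ± 40.6 CPM (log2 fold change 0.59; edgeR, adjusted p = 0.346).

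Across the 8 libraries, Grin1 and Grin2a had a Pearson r of 0.854 in log2 CPM, Grin2a and Grin2b of 0.768, Grin2d and Grin3a of 0.768, and Grin2b and Grin3a of -0.732. These describe libraries that share their condition and tissue content. Among the 13697 other genes that passed the filter of 10 counts in every library, those most like Grin2a were Pcdh20 (r = 0.990), a protocadherin, Lgi1 (r = 0.981), a secreted synaptic protein, and Cdh9 (r = 0.978), a cadherin. Pcdh20 had a mean of 17.5 CPM in control and 39.4 CPM in morphine, a log2 fold change of 1.17 (SE 0.18; edgeR, adjusted p = 0.0425). That call held in 9 of 21 alternatives and in 2 of 8 edgeR fits with a library left out, those without control replicate 6 or morphine replicate 3, and its log2 fold change was 0.55 to 1.31 over the alternatives. Lgi1 and Cdh9 had log2 fold changes of 0.51 and 1.08 and were not called (edgeR, adjusted p = 0.171 and 0.114).

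For Grin1 the most similar genes were Ncln (r = 0.994), Pcdhb7 (r = 0.992) and Atrn (r = 0.989), and for Grin2b they were Asb11 (r = 0.983), 4930429B21Rik (r = 0.975) and Unc79 (r = 0.963). Those of Grin2c were 2200002K05Rik (r = 0.979), Rell2 (r = 0.964) and Tmem80 (r = 0.963). Grin2d was nearest to Pnoc (r = 0.963), Kirrel (r = 0.962) and Timp2 (r = 0.955), and Grin3a to Mpzl1 (r = 0.972), Eef1g (r = 0.962) and Mc3r (r = 0.952). The highest values among so many genes over 8 libraries are large by selection, so they rank genes and test nothing.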

How the data were processed

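The authors deposited raw counts, as whole numbers for each RefSeq transcript in each library, from 50-base paired-end reads of a directional kit on mm10. Their methods describe Salmon and tximport for their own DESeq2 test, and the tool behind the deposited counts is not given in the sources used here. The table has 24488 transcript rows for 18939 genes; 0 columns lacked a sample and 0 rows lacked a gene name. Each gene was represented by its row with the highest total.

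Counts were tested with edgeR 4.0.16 in R 4.3.3 (TMM, quasi-likelihood test, Benjamini-Hochberg over all genes). SEs are |log2 fold change| divided by the square root of F. DESeq2 1.42.0, limma-voom 3.58.1, other scaling, filters, covariates and left-out libraries were alternatives. Ratios were compared by exact permutation over 70 arrangements. Log2 CPM used a prior count of 2. Transcript lengths and sequences came from GENCODE M21 on GRCm38.p6. Counting error limits precision little at these counts, but PCR copies are not marked. Scripts were tested on simulated data.

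The members and lists were chosen with earlier results of these data known. Named genes were the subunits, the 2 partner genes per list with the lowest p, the highest marker genes and the 3 most similar genes per subunit; the Y-linked genes, Oprm1 and the overlapping neighbours served as checks. No batch is named in the labels, and none was fitted. Some items are not reported here.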

Additional observations from a re-analysis of the deposited data

How the results depend on the processing

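No paired analysis was possible because the 2 groups share no replicate numbers. The number of genes called between morphine and control was 37 by edgeR, 14 with filterByExpr, 15 with at least 10 counts in every library, 23 with limma-voom, 22 with counts summed over transcripts, 110 with sex in the model, 498 with DESeq2 and 449 with DESeq2 and sex. It was 1 with the telencephalic score, 0 with the choroid plexus score (660 at an unadjusted p under 0.05), 151 within male and 3 within female libraries. Leaving out 1 library gave 0 to 77 calls by edgeR: 0 without morphine replicate 4 or 8 (1697 and 1664 at an unadjusted p under 0.05), 1 without control replicate 1, 11 without morphine replicate 7, 20 without control replicate 5 and 77 without control replicate 6 or morphine replicate 3. Grin2a passed with DESeq2 (0.83), sex in the model (0.83), both (0.84) and without morphine replicate 3 (0.94; 0.73 to 0.94 over left-out libraries, edgeR adjusted p 0.0315 to 0.187). The cause was not tested. The 17 other alternatives left its side of the threshold and its direction as they were. Grin1 turned to -0.079 with the choroid plexus score. Grin2c, near 0, turned to 0.32 and 0.048 with the 2 scores, 0.23 within females and -0.18 to 0.13 over left-out libraries (0.13 without control replicate 2 and 0.0012 without morphine replicate 7), and Grin2d was 0.0034 within females. Differences between sexes, all uncalled by edgeR, spanned 0 over left-out libraries in 5 subunits, with -0.12 to 0.30 for Grin1, -0.0033 to 0.26 for Grin2a, -0.12 to 0.26 for Grin2b, -0.32 to 0.086 for Grin2d and -0.17 to 0.035 for Grin3a, and stayed below 0 for Grin2c (-0.33 to -0.071). The interaction of Grin3a turned to -0.038 without control replicate 5. The fits within a sex, DESeq2 with sex, the interaction without a library, the longest transcript lengths and DESeq2 on the partner lists were added after seeing the data. The ratios kept their direction in every alternative, except Grin2b to Grin1, which spanned -0.27 to 0.08 over left-out libraries; without a library the smallest exact p is 0.0571, so those fits could not pass.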

Other observations

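Grin1 was the one subunit gene with several rows in the deposited table. The rows NM_001177656 and NM_001177657 differed by at most 1 count in any library, and the row NM_008169 held 78.1% to 83.8% of the counts of NM_001177656. Reads shared by transcripts are counted on each of them, so these shares do not measure splicing.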
